A study of Mus musculus with 6 samples.

Results

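Immediate early genes are switched on within minutes of a stimulus from transcription machinery that is already in place, and microglia handled or injured outside their resting state are known to express them. Such genes, 10 in number, were followed here in microglia taken after acute ischemic stroke (AIS): Fos, Fosb, Fosl2, Jun, Junb, Jund, Atf3, Egr1, Egr2 and Ier2. They were chosen by name, and all probes whose transcript record carried one of these 10 symbols were used, which gave 14 of the 56605 probes on the array that were not controls. Fos and Jun family proteins pair to form the AP-1 complex, and Atf3, a stress-induced member of the ATF/CREB family, can pair with Jun proteins. Egr1 and Egr2 are zinc finger factors that bind GC-rich sites, and Ier2 encodes a nuclear protein induced together with them. Their induction is commonly relayed by MAP kinases to the factors SRF with its partners, and CREB, which are bound at the promoters beforehand.

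The samples were 3 control samples from PGC-1αf/f mice and 3 from mPGC-1α mice, with 1 Agilent array each. Both groups carried the Cre-dependent PGC-1α allele with its eGFP tag. Only the mPGC-1α animals had Cre recombinase as well, which was expressed from Cx3cr1, a gene active in microglia and in other mononuclear phagocytes, and was activated by tamoxifen. They were bred to overexpress in these cells the coactivator PGC-1α, a regulator of mitochondrial genes. Per the study's methods, tamoxifen preceded a transient occlusion of the middle cerebral artery, and cells were taken from minced brain by Percoll centrifugation and magnetic selection for the receptor P2RY12, on ice. All samples were labelled as male and as 10 weeks old, and neither the time from stroke to isolation nor the number of mice behind a sample is given for these arrays in the sources used here. The p-values therefore measure the spread between these 6 samples only. The comparison asks whether the immediate early genes of isolated microglia differ with PGC-1α overexpression after AIS.

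Levels are given as the log2 of the processed spot intensity minus the 75th percentile of the same array, so that 0 is the brightness below which 75% of the probes of that array lie, and a difference of 1 is a 2-fold change. The microglial genes P2ry12 and Tmem119 were bright on all 6 arrays, with levels from 3.94 to 4.40 and from 5.15 to 5.52, although the spot of each was marked as non-uniform on 3 arrays. Ppargc1a, the gene meant to be overexpressed, was not higher in the mPGC-1α samples, with -1.05, -0.55 and -0.53 in controls against -1.08, -0.86 and -1.12 (difference -0.31, SE 0.24, limma adjusted p = 0.798). Control array 2 stood apart from the other 5. Its level of Xist, which is transcribed from the inactive X chromosome, was -4.83 against -0.57 to -0.11. The Y-linked genes Ddx3y and Uty were well above background on that array alone. An Eif2s3y probe at -0.81 there was also above background on control array 1, at -6.01. A Kdm5d probe was above it on all 6 arrays, from -5.01 to -3.09, and highest on control array 2. All samples are labelled as male, and Xist, Ddx3y and Uty match that label on control array 2 only. By these 3 genes the other 5 arrays, among them all mPGC-1α arrays, have the signals of female cells. The groups are thus not balanced in this respect. Results are therefore also given without control array 2. That array differed in other ways too. It was the highest of the 6 for 31.8% of 16191 named genes, beside 8.9% to 16.9% for each other array. At some probes it read like the mPGC-1α arrays. Olfml3 had 4.29, 1.45 and 4.35 in controls 1, 2 and 3 against 1.87, 1.74 and 2.39. Pecam1 had 0.28, -2.24 and 0.49 against -1.79, -1.80 and -1.53. Such probes were not counted, and their part in the fit without this array was not tested. Over the whole array 0 of 40745 tested probes (0%) passed an adjusted p of 0.05 in limma, and 2921 (7.17%) had an unadjusted p under 0.05. Without control array 2, 2102 of 39288 probes passed (5.35%), 140 of them higher and 1962 lower in mPGC-1α samples.

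None of the members passed the test. All 14 probes were well above background on all 6 arrays and none was saturated. Of these, 13 probes of 9 genes could be tested, and the only probe for Fos could not, because the scanner software had marked its spot as non-uniform on 4 arrays. By the brightest probe of each gene, 0 of 9 members had an adjusted or an unadjusted p under 0.05, where 6.09% of the main probes of 18222 named genes had an unadjusted p under 0.05. Among the members 7 were higher and 2 lower in mPGC-1α samples, where 64.0% of all named genes were higher. The median difference of the 9 members was 0.32, beside 0.11 for the main probes of all named genes. Without control array 2 all 9 members were higher by their main probe, and 0 passed. Their median was then 0.28, beside 0.19 for all tested probes, for which it was 0.08 with all arrays. The share of all named genes that were higher in that fit was not counted, so the 9 of 9 has no background beside it.

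**Figure D1:**
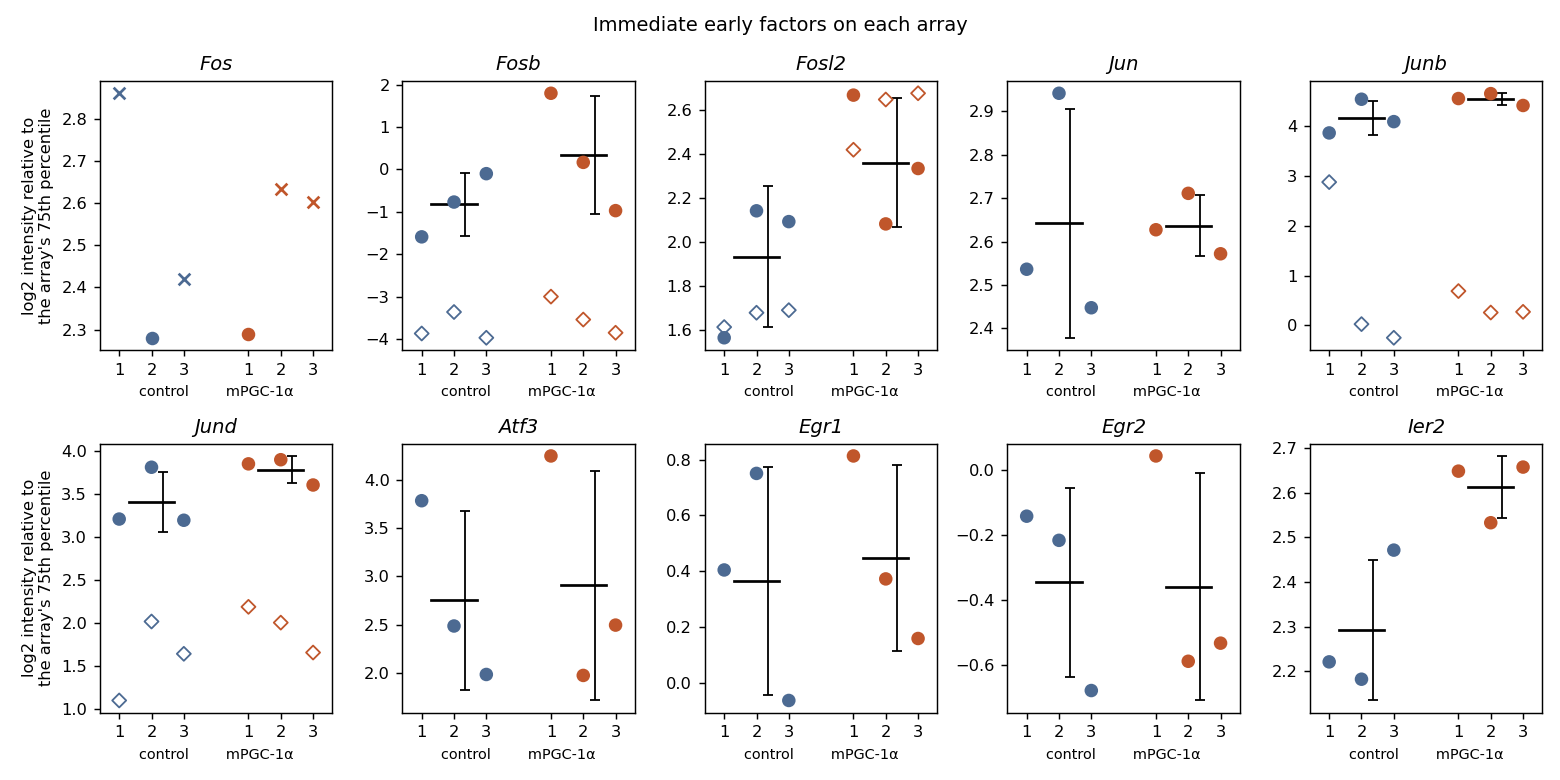
Level of each member on each array, on its own vertical scale (log2 intensity relative to the 75th percentile of the array). Blue marks control arrays 1 to 3 and orange mPGC-1α arrays 1 to 3, filled circles are the main probe, open diamonds a second probe, crosses the marked spots of Fos, and bars the mean and SD of 3 arrays. The main probes of Fosb and Atf3 range widely among arrays of the same group, and Ier2 and the second Fosl2 probe do not overlap between the groups.

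The promoters of 3 members are shown, those of Fosb and Fosl2 because their probes had the largest differences among the members and that of Egr2 because it was the only one with a CArG box, the site of SRF, among the 8 members with an entry in the promoter table, which did not include Egr1 and Ier2. They are the 250 bases before the RefSeq transcription start in GRCm38.p6, written 5′ to 3′ in the direction of the gene, with motif matches in capitals. Fosb lies on the minus strand at chr7:19310046-19310295, Fosl2 on the plus strand at chr5:32136222-32136471 and Egr2 on the plus strand at chr10:67537316-67537565.
Fosb: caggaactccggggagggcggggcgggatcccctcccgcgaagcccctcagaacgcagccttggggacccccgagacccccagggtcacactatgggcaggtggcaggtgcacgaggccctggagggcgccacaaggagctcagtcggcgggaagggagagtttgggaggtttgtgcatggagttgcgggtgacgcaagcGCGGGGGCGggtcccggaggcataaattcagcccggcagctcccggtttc
Fosl2: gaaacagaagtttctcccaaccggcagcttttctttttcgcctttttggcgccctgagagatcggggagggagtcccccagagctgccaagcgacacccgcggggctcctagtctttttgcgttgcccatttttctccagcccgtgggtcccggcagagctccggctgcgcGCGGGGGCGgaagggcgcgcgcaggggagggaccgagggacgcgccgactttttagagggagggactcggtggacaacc
Egr2: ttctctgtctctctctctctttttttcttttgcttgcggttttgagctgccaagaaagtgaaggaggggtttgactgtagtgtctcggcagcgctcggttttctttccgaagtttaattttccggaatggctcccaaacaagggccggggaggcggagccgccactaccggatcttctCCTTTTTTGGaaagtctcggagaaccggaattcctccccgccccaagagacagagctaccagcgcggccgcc
Both strands were searched for 4 motifs, the CArG box, TGACGTCA of CREB and ATF factors, TGANTCA of AP-1, and GCGNGGGCG of EGR factors, and none of the matches in capitals overlapped another. The EGR motif began 50 bases before the start in Fosb and 79 bases before it in Fosl2, and was present in 4.70% of 32851 promoter windows of this length. The CArG box began 72 bases before the start in Egr2, was found for 4 of its 5 listed starts, and was present in 1.47% of all windows. TGACGTCA (1.55% of all windows) and TGANTCA (6.75%) had 0 matches among these 8 members. A match is a string of letters, and no binding was measured in these samples. Sequence outside these 250 bases was not searched, so a missing match does not show that a gene lacks the site.

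Among the Fos family, Fosb spread the most. By its main probe controls 1, 2 and 3 read -1.59, -0.77 and -0.10, and mPGC-1α samples 1, 2 and 3 read 1.80, 0.17 and -0.97. Values are given in this order throughout. The first mPGC-1α array was the highest of the 6, the third lay within the control range, and the groups overlapped. The difference was 1.15, or 2.22-fold (SE 0.63, 95% interval -0.27 to 2.57, limma adjusted p = 0.737, exact two-sided permutation p = 0.3). The smallest permutation p that groups of 3 allow is 0.1. The difference was 2.16 on the slide that held arrays 1 and 2 of each group and -0.87 on the slide that held array 3 of each. Without mPGC-1α array 1 it was 0.42, and without mPGC-1α array 3 it was 1.80. The second Fosb probe was dim and close between the groups, at -3.87, -3.36 and -3.97 in controls against -3.00, -3.54 and -3.85 (difference 0.27, SE 0.34, adjusted p = 0.878), and it too was highest on mPGC-1α array 1.

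Fosl2, which encodes the late and longer-lived Fos family protein Fra-2, had a second probe that separated the groups. That probe, A_55_P2803815, read 1.61, 1.68 and 1.69 in controls and 2.42, 2.65 and 2.68 in mPGC-1α samples. All 3 mPGC-1α samples lay above all controls, and the control values spanned 0.08. The difference was 0.92, or 1.90-fold (SE 0.18, 95% interval 0.52 to 1.33, unadjusted p = 0.000548), and after adjustment over all tested probes p was 0.684 in limma. It was 0.89 on the first slide and 0.99 on the second, and between 0.87 and 1.00 over all alternatives run. Without control array 2 the adjusted p was 0.0196, at a difference of 0.93, while leaving out any other array gave adjusted p-values from 0.860 upwards. The main Fosl2 probe, A_51_P507242, did not separate the groups, with 1.56, 2.14 and 2.09 against 2.67, 2.08 and 2.33 (difference 0.43, SE 0.24, adjusted p = 0.737). The 2 probes thus gave the same sign and unequal sizes, and the counts by main probe above rest on the smaller. Of the 13 member probes 1 had an unadjusted p under 0.05, beside 7.17% of all tested probes.

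Fos itself, the gene most often read as a sign of recent stimulation, gave no usable comparison. With the marked spots kept, its levels were 2.86, 2.28 and 2.42 in controls and 2.29, 2.63 and 2.60 in mPGC-1α samples. The groups overlapped fully, and the difference was -0.01 (SE 0.21, 95% interval -0.49 to 0.47, limma adjusted p = 0.994 with these spots in the fit). The 2 unmarked spots, control array 2 and mPGC-1α array 1, read 2.28 and 2.29. Fos was bright on every array of both groups, and it was not high on the array on which Fosb was highest.

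The Jun genes lay above the 75th percentile on every array by their main probes. Jun, the main transactivating partner in AP-1, had 2.54, 2.94 and 2.45 in controls and 2.63, 2.71 and 2.57 in mPGC-1α samples. The mPGC-1α values lay inside the control range, and the difference was -0.01 (SE 0.20, 95% interval -0.45 to 0.44, adjusted p = 0.998). Junb, a weaker activator that competes with Jun, read 3.87, 4.55 and 4.10 against 4.56, 4.66 and 4.42, a difference of 0.38 (SE 0.21, adjusted p = 0.737). Jund, which is expressed more steadily than the other two, read 3.21, 3.81 and 3.19 against 3.85, 3.90 and 3.60, also a difference of 0.38 (SE 0.22, adjusted p = 0.744). For Junb and Jund control array 2 was the only control inside the mPGC-1α range. Without it the differences were 0.56 (unadjusted p = 0.00880, adjusted p = 0.103) and 0.58 (unadjusted p = 0.00797, adjusted p = 0.0978). By main probe these were the 2 of 9 members with an unadjusted p under 0.05 in that fit. In the same fit 8637 of all 39288 tested probes had such a p, a share like that of the members.

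The second probes of the Jun genes did not all repeat the first. For Jund the second probe gave 1.10, 2.02 and 1.64 against 2.19, 2.00 and 1.65, a difference of 0.36 (SE 0.27, adjusted p = 0.786) close to that of the main probe. For Junb the second probe read 2.88 on control array 1 and from -0.25 to 0.69 on the other 5 arrays, so that its difference was -0.48 (SE 0.69, adjusted p = 0.897). The main Junb probe was at its lowest on that same array. Of the 4 genes with 2 tested probes, Junb was the 1 whose probes differed in sign.

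**Figure D2:**
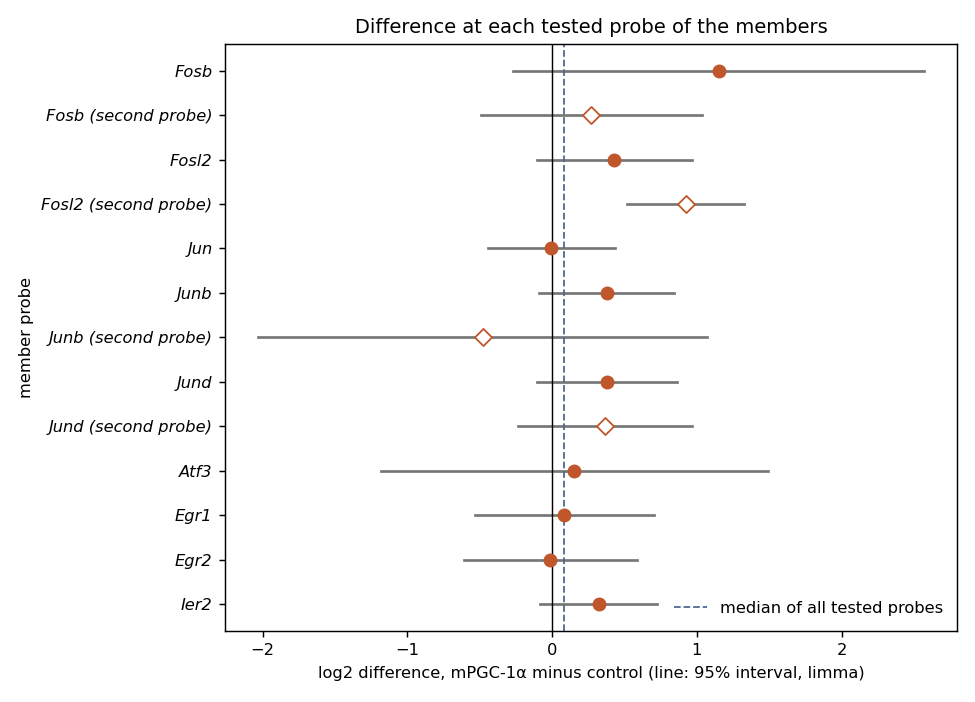
Log2 difference of mPGC-1α minus control for each of the 13 tested member probes, with its 95% interval from limma (filled circles main probes, open diamonds second probes). The dashed line is the median of all tested probes, 0.08. Of the 13 intervals 12 include 0, and that of the second Fosl2 probe, 0.52 to 1.33, does not before adjustment for the number of probes.

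Atf3 and Fosb were the 2 members with a range over 2 on the log2 scale, and the other 7 ranged over less than 1.2. Atf3, which is induced by cell stress and by injury of neurons and glia, read 3.78, 2.49 and 1.98 in controls and 4.25, 1.97 and 2.50 in mPGC-1α samples. It was high on array 1 of both groups and lower on the other 4 arrays. The difference was 0.15 (SE 0.59, 95% interval -1.18 to 1.49, adjusted p = 0.964, exact permutation p = 0.9). It was -0.52 without mPGC-1α array 1 and 0.67 at its highest among the fits that left out 1 array.

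The Egr genes were close between the groups. Egr1 read 0.41, 0.75 and -0.06 in controls and 0.81, 0.37 and 0.16 in mPGC-1α samples, a difference of 0.08 (SE 0.28, 95% interval -0.54 to 0.70, adjusted p = 0.958). Egr2, which acts in macrophages as well as in myelinating cells, read -0.14, -0.22 and -0.68 against 0.04, -0.59 and -0.53, a difference of -0.01 (SE 0.27, 95% interval -0.61 to 0.58, adjusted p = 0.995). The groups overlapped for both genes, and both were highest on mPGC-1α array 1. Ier2 read 2.22, 2.18 and 2.47 in controls and 2.65, 2.53 and 2.66 in mPGC-1α samples. All 3 mPGC-1α samples lay above all controls, and the difference was 0.32, or 1.25-fold (SE 0.18, 95% interval -0.08 to 0.73, adjusted p = 0.740, exact permutation p = 0.1). Ier2 was 1 of 9 members whose main probe did not overlap between the groups and was higher, beside 8.48% of 16191 named genes. Counted by probe this was 2 of 13, or 15.4%, beside 6.80% of all tested probes with 6 values.

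Several members were highest on 1 and the same array. The first mPGC-1α array was the highest of the 6 for 5 of 9 members, Fosb, Fosl2, Atf3, Egr1 and Egr2, beside 16.9% of 16191 named genes, and the lowest for 0. With each gene set to its own mean over the 6 arrays, the mean of the 9 members was -0.22, 0.00 and -0.26 in the controls, and 0.60, -0.00 and -0.12 in the mPGC-1α samples. The median of the members followed the same order at its top, at 0.40 on mPGC-1α array 1 and between -0.26 and 0.14 on the other arrays. The other two mPGC-1α arrays lay inside the range of the controls. Across the 6 arrays the members correlated with their own mean profile, which they enter, at r from 0.28 for Jun to 0.85 for Fosb, a description over 6 arrays that share 1 high array.

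Other immediate early genes were often highest on that array as well. Of a list of 38, 34 were tested, 28 were higher and 6 lower in mPGC-1α samples, 1 had an unadjusted p under 0.05, 0 passed, and the median difference was 0.13. Without mPGC-1α array 1 the median was 0.08, with 21 of 30 higher, and without mPGC-1α array 2 it was 0.21. mPGC-1α array 1 was the highest for 14 of the 27 with a value on all arrays (51.9%), beside 16.9% of named genes. The gene below 0.05 was Arc, best known from active neurons, at -2.19, -1.48 and -3.70 against -0.37, -1.03 and -1.77 (difference 1.40, SE 0.55, unadjusted p = 0.0318, adjusted p = 0.686). All its mPGC-1α values but the third lay above all controls. Fosl1, the Fos family gene for Fra-1, had the next largest difference at 0.73 (adjusted p = 0.826), on a dim probe with controls from -4.85 to -2.32.

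Genes often raised by tissue dissociation had their highest mean on the same array. Of 21 such genes 20 were tested, 18 were higher, 2 had an unadjusted p under 0.05, 0 passed, and the median difference was 0.35. Without mPGC-1α array 1, 10 of 15 were higher and the median was 0.18. Over the 13 with a value on every array, the mean level was 3.11 on mPGC-1α array 1 and between 1.73 and 2.05 on the other 5 arrays, and 5 of the 13 were highest on it. With each gene set to its own mean, the median of the 13 was 0.32 on that array and between -0.37 and 0.05 on the others. The inducible heat shock gene Hspa1a, named after its values were seen, read 2.49 on mPGC-1α array 1 and from -2.62 to -1.24 elsewhere, and its near copy Hspa1b read 2.86 there and from -2.80 to -0.84 elsewhere. The sequences of these 2 genes are nearly identical, so their probes may share signal. The 2 genes with an unadjusted p under 0.05 followed the groups and not that array: the metallothionein gene Mt2 read 3.91, 3.95 and 3.88 in controls against 4.52, 5.02 and 4.42 (difference 0.74, unadjusted p = 0.00417, adjusted p = 0.684), and Mt1 was higher by 0.64 (unadjusted p = 0.00625, adjusted p = 0.684). Neither overlapped between the groups. This held, with mPGC-1α samples higher, for 3 of the 13 genes with a value on every array, beside 8.48% of named genes.

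**Figure D3:**
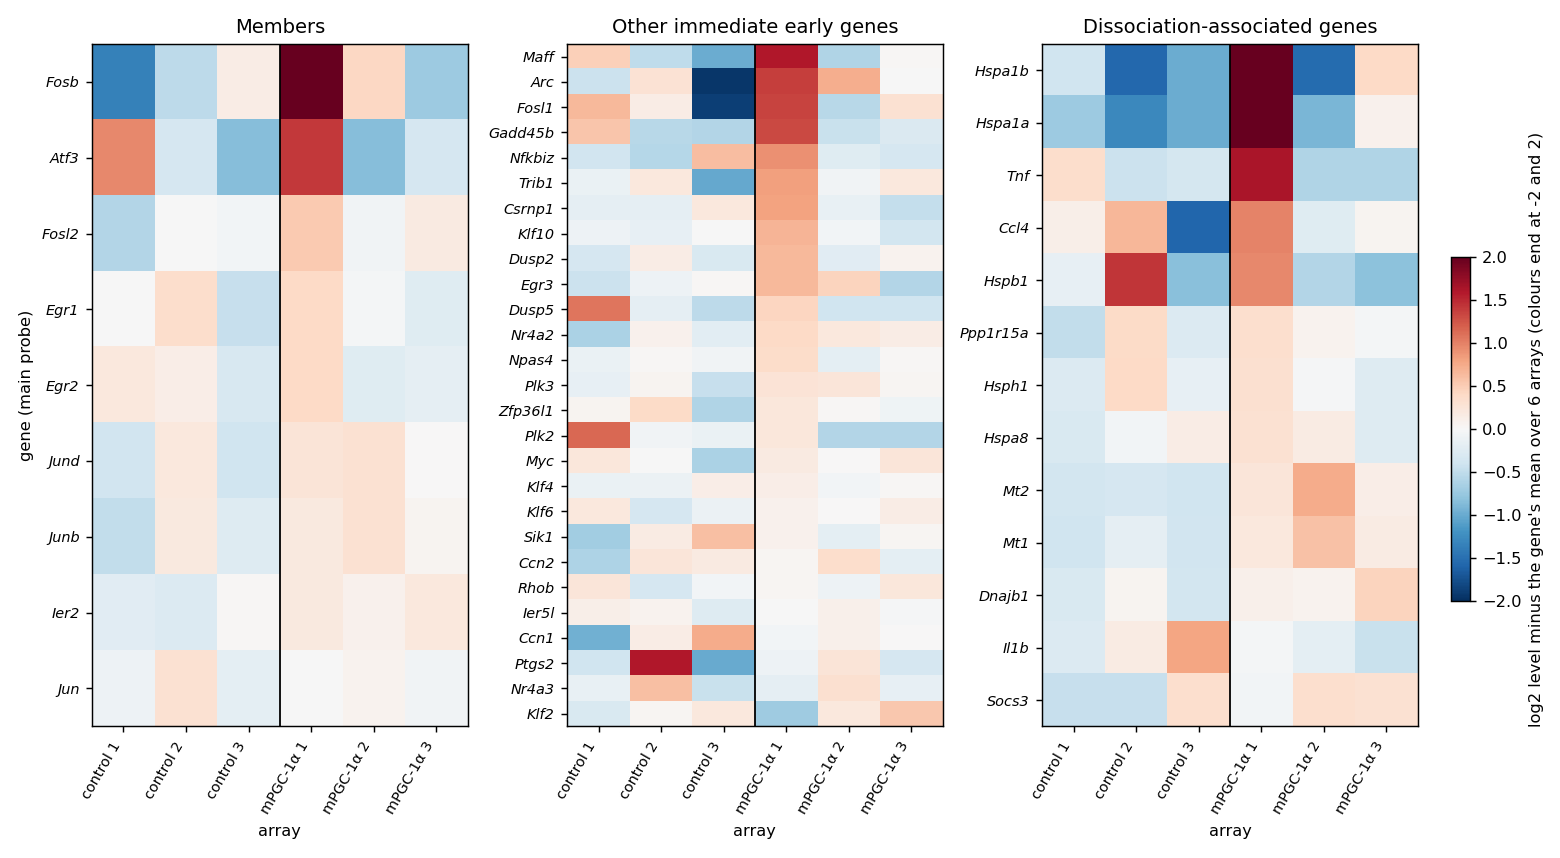
Main probe of each gene with a value on all 6 arrays, in the members (left), the other immediate early genes (middle) and the dissociation-associated genes (right), as log2 level minus the mean of the gene over the 6 arrays. Rows are ordered by the value on mPGC-1α array 1, and the black line parts control from mPGC-1α arrays. On mPGC-1α array 1 the darkest red is that of Fosb and Atf3 among the members, Maff and Arc among the other immediate early genes, and Hspa1b and Hspa1a among the dissociation-associated genes.

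None of the kinases and factors that induce these genes passed the test with all arrays. All 23 were tested, 20 were higher and 3 lower, 1 had an unadjusted p under 0.05, 0 passed, and the median difference was 0.22. The median was between 0.11 and 0.13 when control array 1 or 3 or mPGC-1α array 1 or 2 was left out. Without control array 2 it was 0.25, and 3 of the 23 passed in either direction. Of all tested probes 5.35% passed in that fit (140 higher and 1962 lower). Map2k4, a kinase of the JNK pathway, had a difference of 0.36 (adjusted p = 0.758), and its second probe had the opposite sign at -0.83 (adjusted p = 0.724).

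Of 11 AP-1 partners and Egr corepressors 9 were tested, 7 were higher and 2 lower, 1 had an unadjusted p under 0.05, 0 passed, and the median difference was 0.04, which ran from 0.00 to 0.16 with 1 array left out. Batf, which pairs with Jun proteins in immune cells, read 0.75, 0.36 and 0.67 in controls and 1.12, 1.06 and 1.45 in mPGC-1α samples (difference 0.62, SE 0.21, unadjusted p = 0.0176, adjusted p = 0.684). Jdp2, a repressor that also pairs with Jun proteins, read 2.22, 2.13 and 2.13 against 2.62, 2.49 and 2.41 (difference 0.35, adjusted p = 0.715). Neither gene overlapped between the groups. This held, with mPGC-1α samples higher, for 2 of the 7 genes of the list with a value on every array, beside 8.48% of named genes.

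The 5 named genes whose pattern was most like the mean of the members, among 6187 that ranged over at least 1 on the log2 scale, were Sidt1 (r = 0.995 over the 6 arrays), Vwa5b2, Ifnb1, Gm3893 and Gm26871 (each 0.992). All 5 were highest on mPGC-1α array 1. Ifnb1, which encodes interferon beta, read 0.63 there and from -3.57 to -2.29 on the other arrays. Hspa1a correlated at 0.891, as the 215th of these genes. The likeness rests on the single high array, and Fos could not serve as a reference because 4 of its 6 spots were marked.

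Markers of neurons, oligodendrocytes and astrocytes were also higher in the mPGC-1α samples, and their part in the values above was not tested. Neuron markers were higher for 12 of 13 genes (7 with an unadjusted p under 0.05, median 0.78), and their mean level ran from -1.12 to -0.65 in controls and from -0.66 to 0.23 in mPGC-1α samples. Oligodendrocyte markers were higher for 10 of 10 genes (4 under 0.05, median 0.87), and all 8 with a value on every array were highest on mPGC-1α array 1 (median 0.52 without that array), where their mean level was 0.46, against -1.76 to -0.43 elsewhere. Astrocyte markers were higher for 9 of 9 (4 under 0.05, median 0.97, and 7 of 9 with a median of 0.39 without mPGC-1α array 2), from -0.48 to 0.20 in controls and from 0.31 to 1.43 in mPGC-1α samples, and were highest on mPGC-1α array 2, on which the members were not high. The share of all named genes with an unadjusted p under 0.05 was 6.09%. With all arrays none of the marker genes passed the adjusted test. Without control array 2, 2 of 13 neuron and 3 of 10 oligodendrocyte markers passed. So did 2 of 7 microglial and 1 of 7 endothelial and mural markers. These are counts in either direction, beside 5.35% of all tested probes (140 passed as higher and 1962 as lower). Endothelial and mural markers were higher for 6 of 7 genes (median 0.23), with mean levels from -1.68 to -1.52 in controls and -1.58 to -1.48 in mPGC-1α samples. Monocyte and macrophage markers were higher for 2 genes and lower for 8 (median -0.12). The neutrophil markers with a value on every array, 3 genes, were at 0.83 on mPGC-1α array 1 and between 2.46 and 3.38 on the others. Of 8 tested microglial markers 3 were higher and 5 lower, with a median of -0.09, and 1 had an unadjusted p under 0.05. That was Cx3cr1, the gene that drives the Cre, at a difference of -1.23 (unadjusted p = 0.000616, adjusted p = 0.684). The Cre was placed by targeted mutation in Cx3cr1 itself, and only the mPGC-1α animals carry that allele. The groups thus differ in genotype at this gene, and the part of this in its level was not tested. Fewer cells of a type and less RNA per cell cannot be told apart in these bulk samples.

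**Figure D4:**
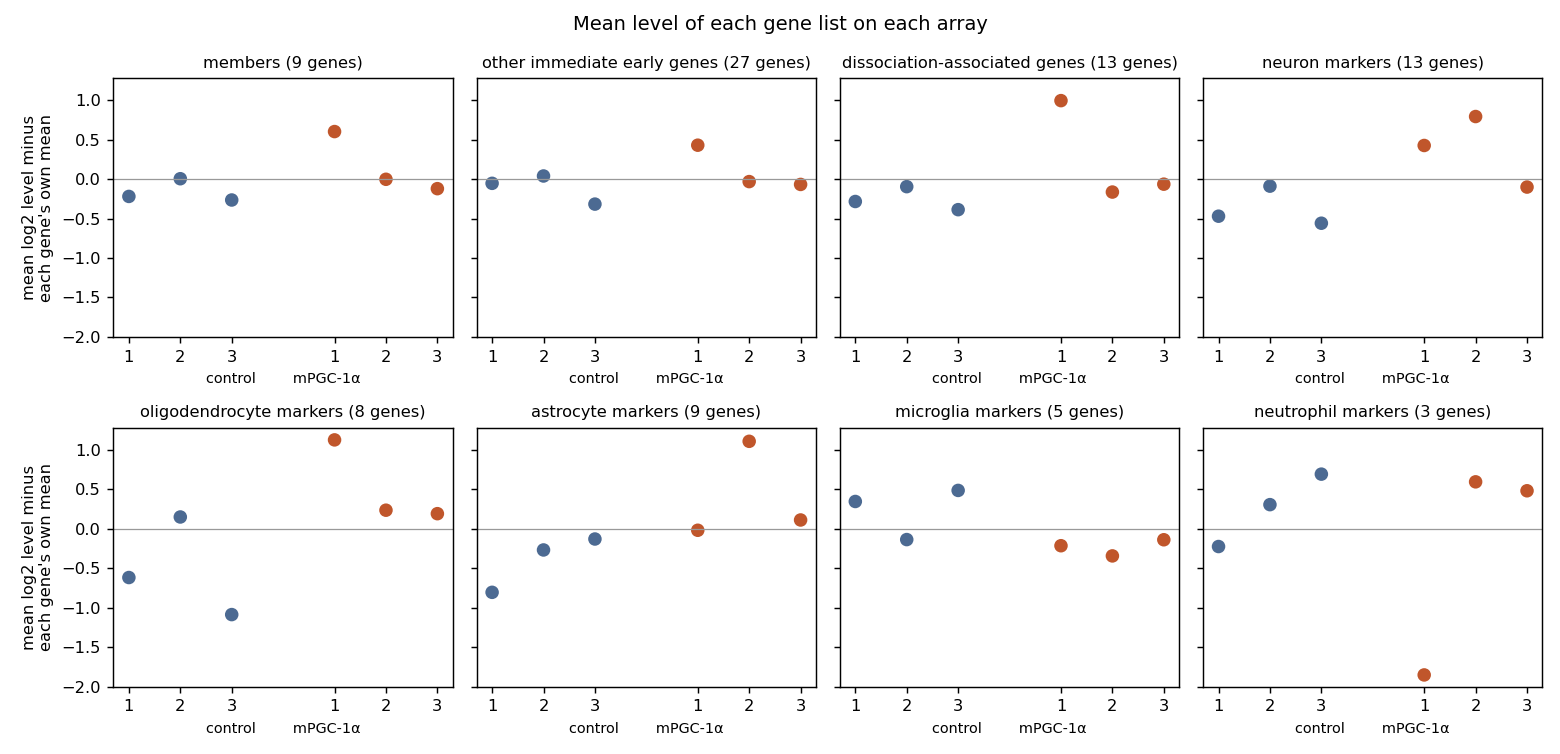
Mean over the genes of each list on each array, after each gene was set to its own mean over the 6 arrays (log2 scale, blue control and orange mPGC-1α arrays 1 to 3, number of genes in each title). mPGC-1α array 1 is highest for the members (0.60), the other immediate early genes, the dissociation-associated genes (1.00) and the oligodendrocyte markers (1.13), and lowest for the neutrophil markers (-1.85).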

How the data were processed

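RNA of P2RY12-selected microglia was amplified and read on Agilent Mouse Gene Expression arrays, in 1 colour, with 1 array for each sample. Spot intensity in the deposited scanner files is linear, background-subtracted and detrended by Feature Extraction 11.5.1.1 and not normalized between arrays. The deposited series matrix holds log2 values normalized by the authors in GeneSpring for 46731 probes and was used as an alternative.

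Using R 4.3.3 and the data.table package (version 1.17.8), the processed signal was put on the log2 scale, spots of a probe were averaged, and the 75th percentile of the array over all 56605 non-control probes was subtracted. Spots marked as outliers count in the percentile but were otherwise left out. Tested probes had signal well above background on every unmarked array of at least 1 group, and at least 2 values in each group. Groups were compared with limma 3.58.1 (eBayes with trend, two-sided, Benjamini-Hochberg over 40745 probes, threshold 0.05), tested on simulated data. No array test is specified in the paper. Its general test for 2 groups, Mann-Whitney, cannot give a p under 0.1 with 3 arrays a group. The main probe of a gene is the tested one with the highest mean. Single values were also compared by an exact permutation test over 20 assignments. Probes were named by matching accessions to RefSeq genes of GRCm38.p6 (33767 probes, 59.7%). The array grid uses an older build, so no probe coordinates are given. Promoters are RefSeq's.

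The members and gene lists were chosen with earlier results of these data known. All members were named, and of the other immediate early, kinase, partner and dissociation lists the genes with an unadjusted p under 0.05 (at most 4 in each direction) or, where fewer than 2 passed, the 2 largest differences. Marker lists are given as counts and levels. The single values of 1 gene of the kinase list are not reported here. Deviations from the group mean correlated at 0.247, 0.224 and 0.171 between arrays of the same replicate number and between -0.337 and 0.035 otherwise, so a fit with the replicate number as a block was run as an alternative to the fit without it, from which the reported values come. No label says what the numbers stand for. Alternatives were quantile normalization, normexp (offset 50, on the median spot signal), the series matrix, 2 filters, slide and replicate blocks, no trend, the mean of all probes, marked spots kept, and leaving out each array. The number of arrays limits the precision.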

Additional observations from a re-analysis of the deposited data

How the results depend on the processing

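The median difference of the members stayed between 0.15 and 0.40 under all 18 alternatives, and 0 members passed by their main probe in 17 of them. Taking the 75th percentile over unmarked spots only was chosen after seeing the data. With it and the replicate block together, 1715 probes passed (450 higher, 1265 lower), 1 member passed, Fosb (difference 1.23, adjusted p = 0.0203), and 1 other immediate early gene, and the second Fosl2 probe had an adjusted p of 0.00473. The marks are most frequent on the arrays of the second slide, so this choice shifts those arrays. The replicate block alone gave 1 probe and changed no call of a member. Leaving out 1 array gave between 0 and 2102 probes, the latter without control array 2, and 0 members by their main probe in every case. Without control array 2 the second Fosl2 probe passed (limma adjusted p = 0.0196).

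Differences near 0 changed sign. Egr2 was 0.0768 with quantile normalization, 0.0873 with normexp, 0.0092 in the series matrix, 0.0626 with the percentile over unmarked spots, with and without the block, and from -0.22 to 0.10 with 1 array left out. Jun was 0.0113 with normexp, 0.0713 with the percentile over unmarked spots, with and without the block, and from -0.10 to 0.14 with 1 array left out. Junb was -0.0514 as the mean of its probes, of which the second has a single high control array. With 1 array left out Egr1 ran from -0.13 to 0.28 and Atf3 from -0.52 to 0.67. Fosb, Fosl2, Jund and Ier2 kept their sign under every alternative. The 3 arrays a group limit what the test can call, and the permutation test cannot give a p under 0.1.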
